A study of Homo sapiens with 2 samples.

Results

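Among the RNA stretches bound by Flag-RBM47 in brain metastatic breast cancer cells, those that carried the location labels for coding sequence (CDS) and for the 5′ untranslated region (5′UTR) together, and no other label, were examined. A cluster is a stretch of overlapping sequence tags, and a tag is a read counted once after copies made by amplification were collapsed. Of 233546 listed clusters, 2252 (0.964%) carried exactly these labels. They lay in 1331 of the 7712 genes with a gene ID in the table (17.3%), and 2 of them had no gene ID.

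RBM47 is an RNA-binding protein, and the comparison that the design allows is between transcript regions and between the 2 replicate libraries. The cells were MDA231-BrM2a, a non-clonal population derived from the breast cancer line MDA-MB-231 that colonises the brain, with a stable, doxycycline-inducible transgene for Flag-tagged wild-type RBM47. Doxycycline was given at 1 ng/ml over 3 days, after which RNA in contact with the protein was fixed to it by UV light, recovered with the Flag tag and sequenced (HITS-CLIP). Both libraries belong to this 1 group. The study speaks of replicate experiments and treats sites found in both as biologically reproducible, but whether the cultures were separate is not stated, so the spread may be in part technical. No library without crosslinking or without the transgene was analysed here, which leaves the level of tags recovered without RBM47 unknown. The replicate 1 column held 999047 tags and the replicate 2 column 3489697, so replicate 1 made up 22.3% of the tags. Of the markers of this mesenchymal-like line, all 6 were bound, from 974 tags in SPARC to 8676 in CD44, while ESR1, PGR, GATA3, FOXA1 and CDH1, which luminal and epithelial cells express, had no listed tags and ERBB3 had 6. Tags count binding and not expression, and more RNA and more binding per RNA molecule cannot be told apart here.

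The 5′UTR is the leader that the small ribosomal subunit scans before it meets the start codon, and the CDS is the stretch read into protein from there on. A label for both regions can mean that a cluster crosses the start codon of a transcript. It can also mean that the gene has several transcripts, and that an exon is coding in some of them and part of the leader in others. The table does not say which transcript models were used, so the 2 cases cannot be told apart cluster by cluster.

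Annotated start codons of genes with large clusters of this kind are shown to give the sequence at the boundary of 5′UTR and CDS. The genes shown are those among the 19 genes of the 20 largest clusters that had 1 annotated start codon and 1 such cluster, and whose window lay within 1 exon. Each sequence runs 5′ to 3′ on the transcript strand, has 12 bases before the start codon and 15 after it, and shows the start codon ATG in capitals. Sequences and positions come from the canonical transcripts of GENCODE on build GRCh37. The clusters were listed on build hg18, so the windows show the annotated start and not the bound bases.
DKK1, chr10:54074183-54074212, plus strand: agtccttctgagATGatggctctgggcgca
IL8, chr4:74606364-74606393, plus strand: ctgtgtgtaaacATGacttccaagctggcc
VIM, chr10:17271410-17271439, plus strand: ccctccgcagccATGtccaccaggtccgtg
PTP4A2, chr1:32384649-32384678, minus strand: ttatttgccataATGaaccgtccagcccct
SLC7A11, chr4:139163206-139163235, minus strand: tgtgtccctactATGgtcagaaagcctgtt

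The label was first checked against the order of clusters along each gene. A cluster at the start codon should lie near the 5′ end of its gene's exonic clusters, which are those labelled only with CDS, 5′UTR, 3′UTR or unclassified exon. Of 2230 clusters labelled CDS and 5′UTR whose gene held at least 2 exonic clusters, 808 were the 5′-most of them, or 36.2% (Wilson 95% interval 34.3 to 38.3). The share was 45.7% (42.7 to 48.7) for clusters labelled 5′UTR alone and 12.2% (11.8 to 12.7) for CDS alone. Counted in percent of the gene's exonic clusters from the 5′ end, the median rank was 7.69% for CDS and 5′UTR, 4.08% for 5′UTR alone and 26.3% for CDS alone, so the class as a whole was placed more like 5′UTR clusters than like coding clusters. These intervals cover counting error only, and clusters of a gene are not independent. When intron and upstream clusters were counted too, 25.3% (23.5 to 27.1) were the 5′-most cluster of their gene. That share depended on the tag minimum set for all clusters of a gene, which also removes neighbours. It was 34.5% and 52.5% when these clusters and their neighbours needed at least 10 and 30 tags, while the 29 clusters of at least 100 tags, set among all clusters of their genes, gave 24.1% (12.2 to 42.1).

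The position depended on how many such clusters a gene held. In the 870 genes with 1 cluster labelled CDS and 5′UTR, 63.1% (59.8 to 66.2) of these clusters were the 5′-most exonic cluster. In genes with 2 of them, the share was 30.9% (27 to 35.2). In genes with at least 3, it was 13.7% (11.6 to 16.1), beside 12.2% of clusters labelled CDS alone. Their median rank was 15% of the gene's exonic clusters from the 5′ end, against 26.3% for CDS alone, so they still lay nearer to the 5′ end than coding clusters. A gene can have only 1 cluster at its 5′ end, so the share has to fall as the number per gene rises.

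**Figure D1:**
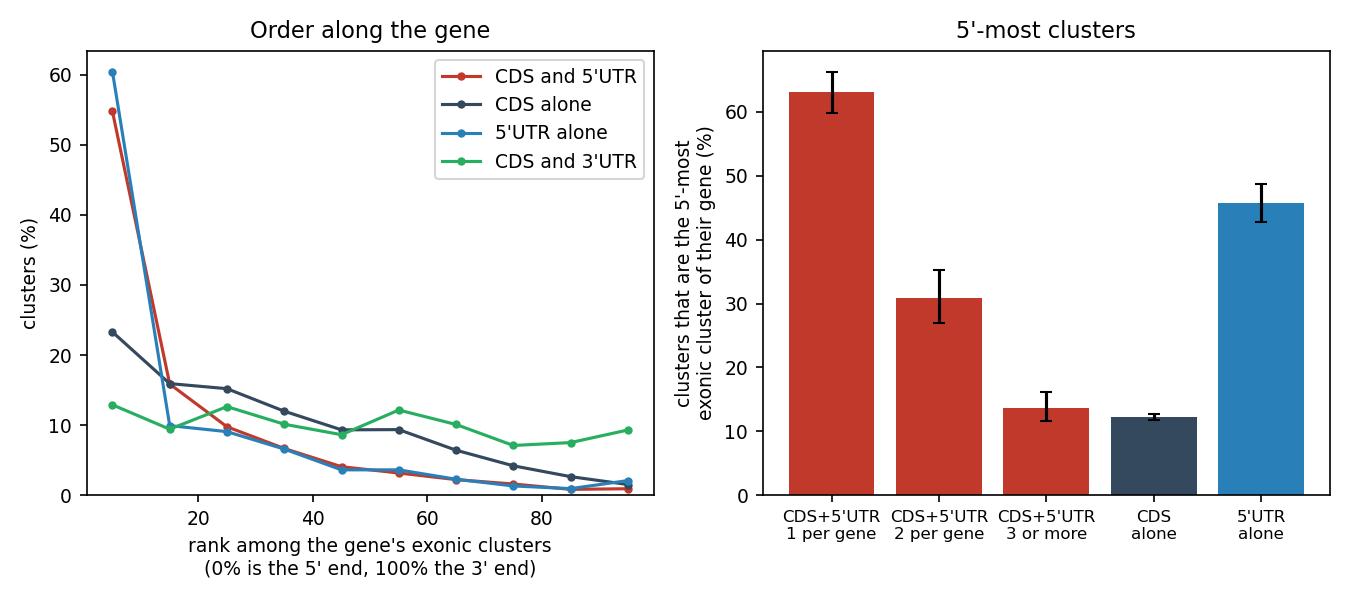
The left panel plots the share of clusters (%) against their rank among the exonic clusters of their gene, from the 5′ end (0%) to the 3′ end (100%), for 4 location classes, and the right panel the share that were the 5′-most exonic cluster, with Wilson 95% intervals as error bars. Clusters labelled CDS and 5′UTR lay in the first 10% of the ranks in 54.8% of cases, against 60.4% for 5′UTR alone, 23.3% for CDS alone and 12.9% for CDS and 3′UTR.

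Many genes held several clusters of this label, too far apart to lie at a shared start codon. In all, 461 genes (34.6%) held at least 2, and these genes contained 1380 of the clusters (61.3%). From the first to the last such cluster of a gene the median distance was 10548 nt, and in 393 of the 461 genes (85.2%) it was over 1000 nt. The distance was over 10000 nt in 237 genes. Merging clusters less than 50 nt apart left 2129 regions.

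The 8 genes with at least 8 such clusters were named after their values were seen. XPO1, the main receptor for nuclear export of proteins, held 12 clusters of 5 to 33 tags spread over 47.9 kb, which together made up 33.3% of the gene's 751 tags. PSME4, a proteasome activator, held 11 clusters of 5 to 12 tags over 61.8 kb. Among protein-coding transcripts of GENCODE not marked as incomplete at the start, it nevertheless had 1 transcript with 1 start codon. PTK2, the focal adhesion kinase, held 12 clusters of 5 to 27 tags over 143.9 kb. The clusters of these genes held 33 tags or fewer, and no start codon could lie under all of those of a gene.

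VEZT, a protein of adherens junctions, held 10 clusters of 6 to 23 tags over 48.3 kb. ROBO1, a receptor for SLIT guidance proteins, held 8 clusters of 5 to 17 tags over 357.3 kb, and BRWD1, a bromodomain protein, held 8 of 5 to 11 tags over 67.2 kb. SETD2, a histone methyltransferase, had 7 of its 8 clusters among its first 8 exonic clusters and the other 77.9 kb from the first, and they held 11 to 97 tags. ZMYND8, a chromatin reader protein, held 8 clusters of 6 to 293 tags over 120.2 kb, and they made up 50.1% of the gene's 818 tags.

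**Figure D2:**
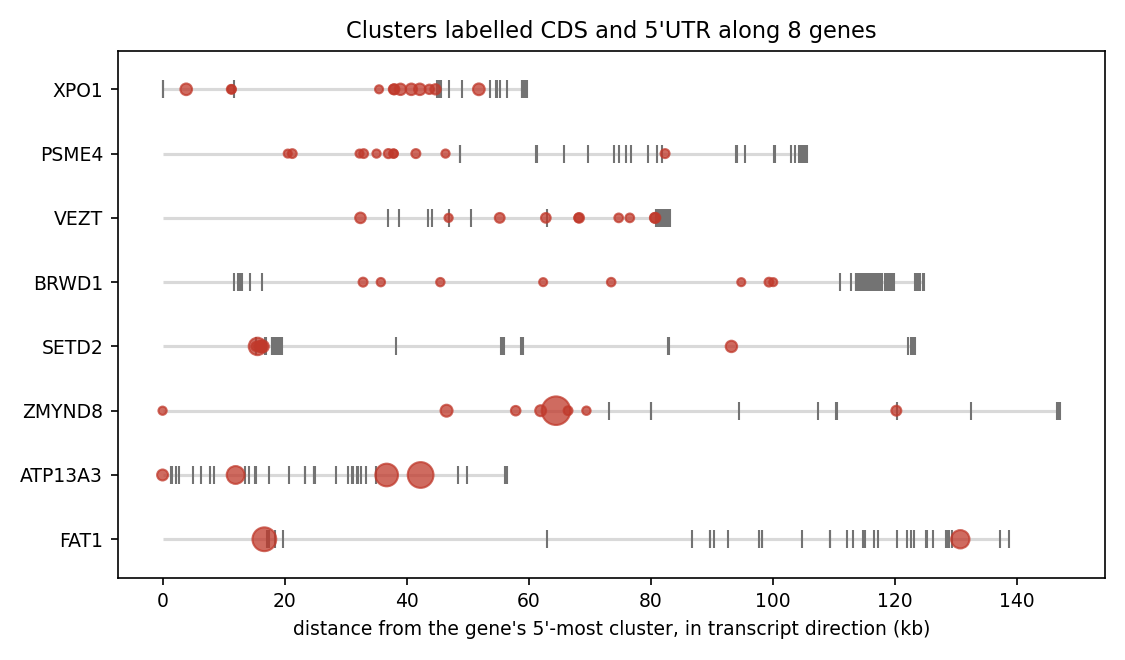
Each row is a gene, with distance in kb from its 5′-most cluster in transcript direction. Red circles are clusters labelled CDS and 5′UTR, with an area that grows with their tags, and grey ticks are the gene's other exonic clusters. The red circles are spread over 61.8 kb in PSME4 and 67.2 kb in BRWD1, while 7 of 8 lie near the 5′ end in SETD2, and the 2 in FAT1 lie 114.0 kb apart.

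The 20 largest clusters of the label held 128 to 583 tags by the authors' total. Together they held 4341 tags, or 11.8% of the tags in all 2252. They lay in 19 genes, since ATP13A3 had 2 of them, and 12 of the 20 lay in genes that were among the 100 with the most tags in the whole table. Replicate 1 contributed 19 to 94 tags to each and replicate 2 contributed 103 to 489. Of the 20 clusters, 6 were the 5′-most exonic cluster of their gene and 11 were at rank 3 or further from the 5′ end. Below, a cluster's position is on hg18 as listed, and whether the listed positions count from 0 or from 1 is not known.

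Transcripts of secreted and matrix proteins gave 5 of the 20. The largest cluster of all was in DKK1, a secreted inhibitor of Wnt signalling, at chr10:53744065-53744446 on the plus strand. It held 94 tags in replicate 1 and 489 in replicate 2, or 0.117 ± 0.0326 tags per 1000 tags in the column of that replicate (SD, n = 2). It was the first of the gene's 5 clusters, was 381 nt long, and held 2.86% of the 20391 tags listed for DKK1. In GENCODE, exon 1 of DKK1 has 154 nt of 5′UTR and 243 nt of CDS. Nearly all other DKK1 tags, 19199, lay in a cluster labelled CDS and 3′UTR.

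IL8 (CXCL8), a chemokine that attracts neutrophils, showed the same arrangement with a smaller cluster. The cluster at chr4:74825132-74825310 on the plus strand held 49 and 145 tags in replicates 1 and 2, or 0.0453 ± 0.00530 per 1000, and was the first of 5 clusters. It held 1.13% of the 17183 IL8 tags, and 16260 tags lay in clusters labelled CDS and 3′UTR. In both genes the cluster nearest the 5′ end held a small part of the tags of a heavily bound mRNA.

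CYR61 (CCN1) and CTGF (CCN2) are immediate early genes for matricellular proteins and known targets of the Hippo pathway. The CYR61 cluster held 46 and 230 tags and was 374 nt long, but it was exonic cluster 5 of 8 from the 5′ end, and a second one held 28 tags in total. The CTGF cluster held 42 and 162 tags and was the first of the gene's 6 clusters, and CTGF had 3 clusters of the label within 0.826 kb. COL8A1, a chain of type VIII collagen, had 46 and 157 tags in a cluster that was the third of its 12 exonic clusters. CYR61, CTGF and COL8A1 thus had similar tag numbers at different places along the gene.

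Of the proteins of the secretory pathway, CANX held the second largest cluster. CANX encodes calnexin, a lectin chaperone of the endoplasmic reticulum (ER). Its cluster at chr5:179065280-179065464 on the plus strand held 38 tags in replicate 1 and 273 in replicate 2, or 0.0581 ± 0.0284 per 1000. The replicate 1 share was 12.2% (9.03 to 16.3), the lowest among the 20. The cluster was exonic cluster 2 of 20 and held 1.25% of the 24793 CANX tags. TMED7, which sorts cargo in vesicles between ER and Golgi, had 46 and 121 tags, and RTN4, which shapes ER tubules, had 27 and 127 tags in the gene's 5′-most cluster.

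The TMED7 cluster shows that shares of a gene depend on which gene ID a cluster was listed under. TMED7 had 222 tags under its own ID, of which the 2 clusters labelled CDS and 5′UTR held 82.4%. The IDs for TICAM2 and for the readthrough transcript TMED7-TICAM2 overlap it and were listed with 1592 and 6058 tags. Over the 3 IDs together, the same 183 tags were 2.32% of 7872.

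Transcripts of cell surface and membrane transport proteins gave 6 clusters. CD44, the hyaluronan receptor, had 49 and 191 tags in its largest cluster, at exonic position 5 of 27, and 6 clusters of the label with 391 tags in all. ATP13A3, a transport ATPase, had 4 such clusters over 42.3 kb, with 26 tags in the 5′-most and then 102, 177 and 235 further along. The clusters of 177 and 235 tags were exonic clusters 31 and 32 of 36. In ATP13A3 the most tags with the label therefore lay toward the 3′ end of the exonic clusters.

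FAT1, an atypical cadherin, had 38 and 160 tags in its 5′-most exonic cluster, and a second cluster of 109 tags lay at exonic position 36 of 38, 114.0 kb away. CD55, which limits complement activation at the cell surface, had 34 and 137 tags. SLC7A11, the light chain of the cystine/glutamate exchanger, had 25 and 103 tags in exonic cluster 3 of 26, which were 0.652% of the gene's 19621 tags. In FAT1 the 5′-most of these clusters likewise held 1.48% of the gene's 13269 tags.

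The rest of the 20 encode cytoskeletal, signalling and nuclear proteins. VIM, the intermediate filament protein of mesenchymal cells, had 34 and 159 tags in the first of its 17 clusters, or 5.77% of its 3345 tags. FRMD6, a FERM domain protein of the Hippo pathway, had 24 and 126 tags in exonic cluster 15 of 23, and 5 clusters of the label with 35 to 150 tags. PTP4A2, a prenylated phosphatase, had 19 and 110 tags, or 8.19% of its 1576 tags, and PALM2-AKAP2, whose product anchors protein kinase A, had 34 and 140. VIM was bound at the 5′ end of the gene, while FRMD6 was bound with this label along its body.

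ZMYND8 and CITED2 are nuclear regulators, and they held the 2 longest clusters of the label. ZMYND8 had 61 and 232 tags at chr20:45353827-45354426 on the minus strand, a cluster of 599 nt that alone held 35.8% of the gene's tags and was exonic cluster 5 of 20. CITED2, a coregulator that binds CBP and p300, had 36 and 127 tags in a cluster of 511 nt that held 20.02% of 814 tags. TLR4, the receptor for bacterial lipopolysaccharide, had 21 and 92 tags in a cluster with 11.4% of 988 tags. With TMED7 and PTP4A2, these are the 5 clusters of at least 100 tags with the largest share of their gene's tags.

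**Figure D3:**
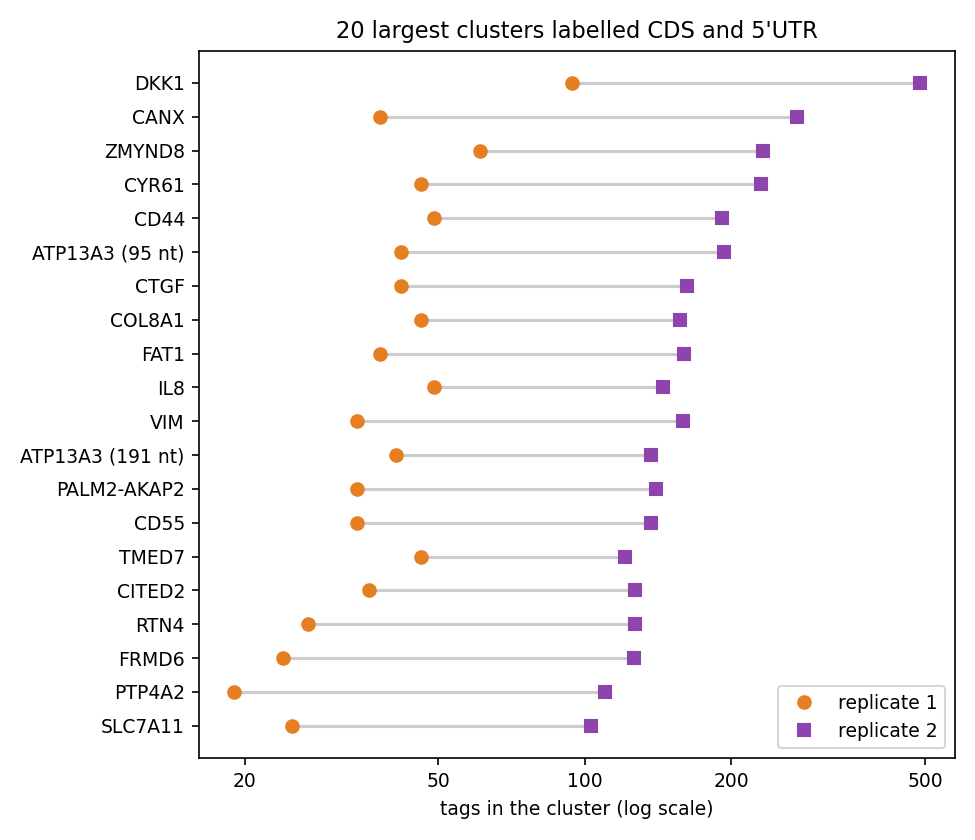
Tags in replicate 1 (circles) and replicate 2 (squares) on a log axis for the 20 largest clusters labelled CDS and 5′UTR, 1 row per cluster in the order of the authors' total. Every cluster has more tags in replicate 2, the larger library, and DKK1 lies highest in both with 94 and 489 tags.

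Most clusters of the label were shallow. The median was 9 tags, with quartiles of 6 and 16 and a range of 5 to 583. In replicate 1 the median was 2 tags, and 714 clusters (31.7%) had 1 tag there. Clusters of 5 to 9 tags numbered 1176 (52.2%), those of 10 to 29 numbered 829 (36.8%), those of 30 to 99 numbered 218 (9.68%), and 29 (1.29%) held at least 100. Clusters of at least 10 tags numbered 1076, and in them the label took 0.785% of replicate 1 tags and 0.824% of replicate 2 tags, or 0.804% ± 0.0279 (SD, n = 2).

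Depth was then compared with the classes that share a label or a boundary with it, in clusters of at least 10 tags. In mean log2 tags, clusters labelled CDS and 5′UTR exceeded those labelled CDS alone by 0.020 in replicate 1 and 0.049 in replicate 2. On the total the difference was 0.045, and it changed sign per nt of cluster length, to −0.049, and among genes that held both kinds, to −0.019. Of 607 such genes, 269 had deeper CDS and 5′UTR clusters and 328 had deeper CDS clusters. The direction of the difference from coding clusters therefore depended on the scale.

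Against 5′UTR clusters the difference was −0.05 in replicate 1 and 0.11 in replicate 2, with a mean of 0.03 ± 0.11 (SD, n = 2), so it was within the spread between replicates. In 123 genes with both kinds, the clusters labelled CDS and 5′UTR were deeper in 76 and shallower in 45, with a mean difference of 0.41. The share of the tags in clusters of at least 10 tags was 0.804% ± 0.0279 for CDS and 5′UTR. It was 0.327% ± 0.00951 for 5′UTR alone and 8.26% ± 0.182 for CDS alone (SD, n = 2 each).

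Clusters at the other boundary of the coding sequence were deeper. Clusters labelled CDS and 3′UTR exceeded those labelled CDS and 5′UTR by a mean log2 difference of 1.04 ± 0.06 (SD, n = 2), which is larger than the spread between replicates. Written as CDS and 5′UTR minus CDS and 3′UTR, the difference was −1.08 in replicate 1 and −0.99 in replicate 2. Per nt it was −0.37 on the total. Without a tag minimum, clusters labelled CDS and 3′UTR were longer, with a median of 122 nt against 88 nt. In 382 of 466 genes that held both kinds, the CDS and 5′UTR clusters were the shallower. At least 100 tags were reached by 1.29% of clusters labelled CDS and 5′UTR and by 13.9% of those labelled CDS and 3′UTR.

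**Figure D4:**
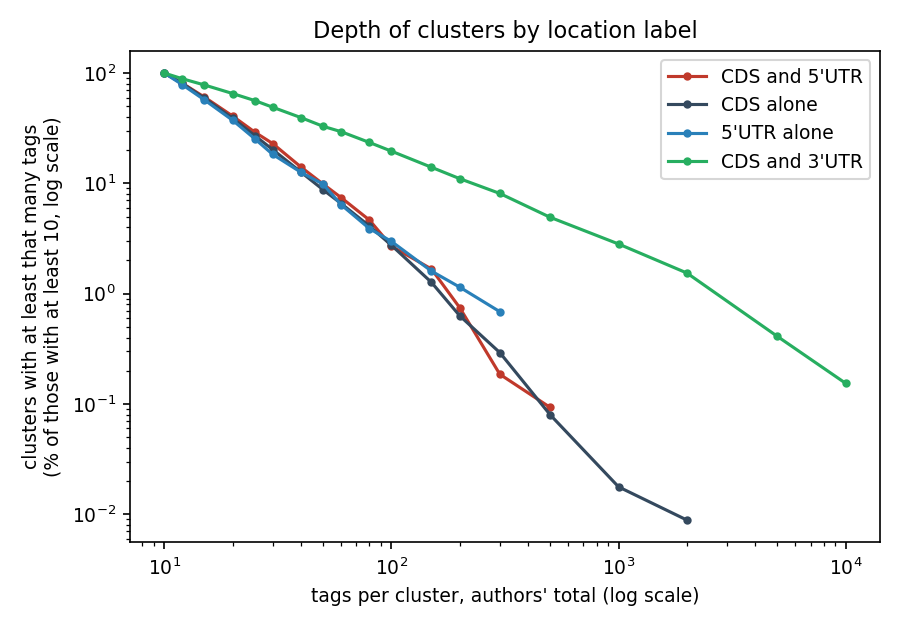
Share of clusters (%, log axis) that reach a given number of tags (log axis), among clusters of at least 10 tags, for 4 location classes. The curves for CDS and 5′UTR, CDS alone and 5′UTR alone run together up to 100 tags, and the curve for CDS and 3′UTR lies above them.

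The median length of 88 nt (10th percentile 52, 90th percentile 162, range 26 to 599) was near the 84 nt of both CDS alone and 5′UTR alone clusters. A long cluster is more likely to cross a boundary than a short one, and length and tags moved together across the 2252 clusters (Spearman's rho 0.645, a description). In clusters of at least 10 tags the median was 16.2 tags per 100 nt, against 16.7 for CDS alone, 15 for 5′UTR alone and 19.6 for CDS and 3′UTR.

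The split of tags between the replicates was tested for every cluster of the table with a two-sided exact binomial test against the overall replicate 1 share, which compares the 2 libraries and not conditions. At an adjusted p (Benjamini-Hochberg) under 0.05, 0 of 2252 clusters labelled CDS and 5′UTR were called, and over all 233546 clusters 0.0111% were called, 0.00128% with a higher share in replicate 1 and 0.00985% with a higher share in replicate 2. At an unadjusted p under 0.05 the exact test gave 66 clusters (2.93%), beside 3.04% of all clusters. The smallest adjusted p was 0.0635 for CANX, followed by PDCD6IP, a protein of endosomal sorting, at 0.491 with 7 and 1 tags, and DKK1 at 0.651, where replicate 1 gave 16.1% of tags. Every listed cluster had tags in both replicates, so PDCD6IP was split as unevenly toward replicate 1 as its depth allows, yet it was not called. For the 1176 clusters of 5 to 9 tags, the absence of calls therefore says little about their split. Over all clusters of the label, the replicate 1 share was 21.4% (21.0 to 21.9), beside 21.7% for CDS alone and 23.3% (22.6 to 23.9) for 5′UTR alone.

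Across the 2252 clusters the replicates correlated with a Spearman's rho of 0.517 and a Pearson's r of log2(tags + 1) of 0.713. The values were 0.624 and 0.756 in the 247 clusters of at least 30 tags, and 0.823 and 0.862 in the 29 of at least 100 tags. For CDS alone they were 0.510 and 0.699 and for 5′UTR alone 0.437 and 0.680. These are descriptions across clusters that share libraries and depth.

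Genes with the label were heavily bound elsewhere too. Their median was 544 tags per gene, against 64 in the 6381 genes without it and 187 in the 3073 genes that had CDS clusters but none with this label. Of the 1331 genes, 1215 (91.3%) also had a 3′UTR cluster, 1189 (89.3%) a CDS cluster, 924 (69.4%) an intron cluster and 297 (22.3%) a 5′UTR cluster. The share of genes with the label was 1.04% in the lowest decile of genes by tags and 49.2% in the highest. A gene with more tags has more clusters of every kind listed, so this order is a description.

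Within a gene, clusters labelled CDS and 5′UTR held a median of 3.19% of the tags (quartiles 1.48% and 7.33%). The median was 3.13% in replicate 1 and 3.16% in replicate 2, or 3.14% ± 0.0227 (SD, n = 2). In 27 genes the share was over 50%, and in 15 of them these were the only tags listed. Among 1155 genes of at least 100 tags the median was 2.63%, and TMED7 and ZMYND8 were the 2 genes over 50%.

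**Figure D5:**
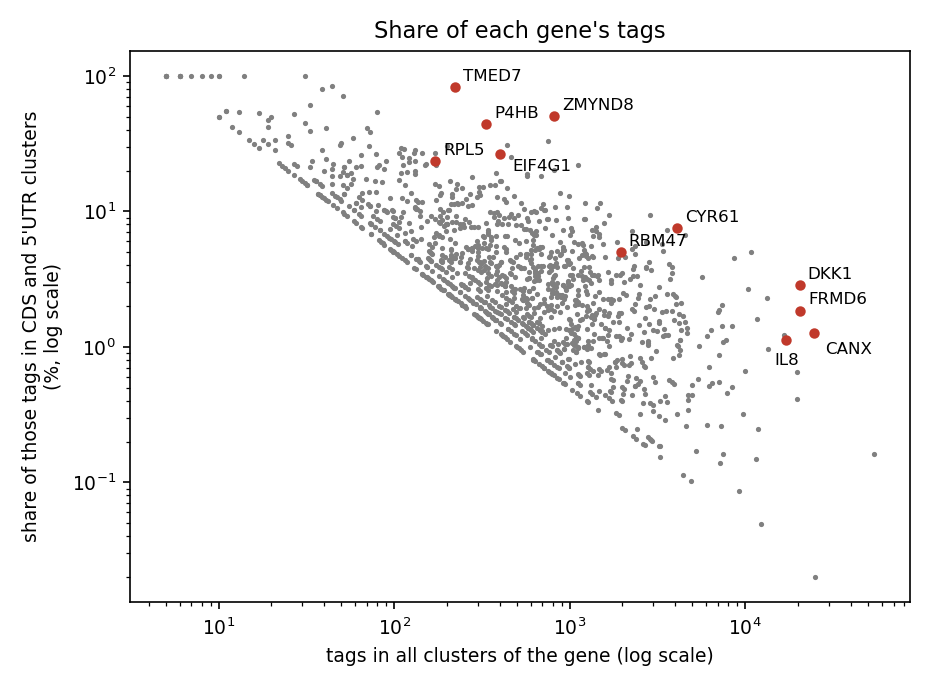
Each point is 1 of the 1331 genes with a cluster labelled CDS and 5′UTR, with the tags in all its clusters on the x axis and the share of them in clusters of this label (%) on the y axis, both log. The lower edge of the points follows from the minimum of 5 tags per cluster, and the heavily bound DKK1, CANX, IL8 and FRMD6 have shares below 3%.

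Gene groups by function were described by how many of their genes in the table had a cluster of the label, beside 17.3% of all genes. That share rose with tags per gene. It was 8.95% of all genes at 54 to 96 tags, 13.3% at 96 to 166 and 20.6% at 166 to 284. At 284 to 519 tags it was 28.4%, at 520 to 1067 it was 39.3%, and in the highest decile, from 1067 tags, 49.2%. Of 38 genes grouped as ER chaperones and folding enzymes, with a median of 923.5 tags per gene, 19 (50%) had such a cluster. The group also holds TMED7, which sorts cargo. Besides CANX and TMED7, the most tags were in P4HB, a protein disulfide isomerase, with 26 and 122 tags in 7 clusters or 44.3% of its 332 tags. Of 35 translation factors, with a median of 200 tags per gene, 13 (37.1%) had one, with a median share of 8.73% of the gene's tags. EIF4G2, an initiation factor known to start at a codon other than AUG, had 84 and 224 tags in 7 clusters of 31 to 67 tags within 3.30 kb. EIF4G1, the scaffold of the cap-binding complex, had 20 and 86 tags, or 26.4% of its 402, and EIF4A2, an RNA helicase of that complex, had 15 and 90.

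Structural, surface and RNA-binding proteins followed. Of 33 genes grouped as actin and tubulin cytoskeleton, with a median of 335 tags per gene, 18 (54.5%) had the label. The group also holds VIM, an intermediate filament gene, which led it before ACTB (10 and 53 tags) and VCL (11 and 41 tags). Of 42 splicing and hnRNP genes, with a median of 493.5 tags, 18 (42.9%) had it, led by HNRNPH1 with 39 and 133 tags, MATR3 with 29 and 73 and HNRNPC with 17 and 36. Of 45 secreted and matrix genes, with a median of 273 tags, 18 (40%) had it, led by DKK1, CYR61 and CTGF. Of 35 receptors and adhesion genes, with the highest median of the groups at 1468 tags, 13 (37.1%) had it, led by CD44, by ITGA6, a laminin receptor subunit, with 19 and 54 tags, and by F3, the initiator of coagulation, with 10 and 47.

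Among these groups the label was least frequent in genes for ribosomes and respiration, which also had the fewest tags per gene. Of all genes, 2.98% had it in the decile of 14 to 29 tags and 7.26% in that of 29 to 54 tags. Of 47 cytosolic ribosomal protein genes, 4 (8.51%) had it, and the median gene of that group had 25 tags in all. RPL5, a protein of the large ribosomal subunit, had 8 and 32 tags, or 23.5% of its 170 tags, RPL23 had 13 in total and RPS12 had 10. Of 36 genes of oxidative phosphorylation, ATP5G3 with 6 tags was the 1 gene with the label, and the median gene there had 31 tags.

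The remaining groups lay between these. Of 39 ubiquitin and proteasome genes, with a median of 54 tags, 11 (28.2%) had the label, led by UBE2K with 56 tags, PSMA1 with 26 and CUL3 with 21. Of 31 immediate early genes, with a median of 125 tags, 9 (29%) had it, with BTG1, an antiproliferative factor, at 24 tags after CYR61 and CTGF. Of 10 histone genes, with a median of 215 tags, H3F3B with 15 tags and H1F0 with 6 had it (20%). Groups with more tags per gene mostly had larger shares with the label, though the order was not the same throughout. Most groups had a larger share than all genes in the decile of their median tags. The share was smaller for receptors and adhesion genes, oxidative phosphorylation and histones. The part of tags per gene in these shares was not tested.

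Among the genes that the study followed, 7 had a cluster of the label, namely DKK1, IL8, RBM47, MBNL1, LIMCH1, SEC31A and MDM4. The RBM47 mRNA itself was bound at chr4:40135467-40135670 on the minus strand, in the first of its 6 clusters, with 21 and 77 tags or 5.03% of 1949. Of its other tags, 1413 lay in clusters labelled CDS alone and 438 in 1 cluster labelled CDS and 3′UTR. RBM47 had no cluster labelled 3′UTR alone or intron alone. The tags were not separated into introduced and endogenous mRNA, and which of them they came from was not tested. MBNL1, a splicing regulator, had clusters of 29 and 12 tags in total, LIMCH1, an actin regulator, had 21, 17 and 5, and SEC31A, a coat protein of ER export vesicles, had 18 and 13. MDM4, an inhibitor of p53, had 6 tags in the 5′-most cluster of the gene. VEGFA, SLK, TNC, HTATIP2, MXI1 and HBP1 had no cluster of the label at the table's minimum of 5 tags.

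The 2 clusters without a gene ID lay on the mitochondrial chromosome and on chromosome 8. The mitochondrial one, at chrM:14747-14905 on the plus strand, held 27 and 72 tags, and the other held 5 and 19.

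The annotation of the genes was compared last, with GENCODE matching 1312 of the 1331 genes with the label (98.6%). These genes had a median of 2 annotated start codons, against 1 in the 3073 genes with CDS clusters and none of the label, and the means were 1.96 and 1.71. A lone start codon was annotated in 44.4% of them and in 55.0% of the other genes. By the number of clusters with the label, the mean was 1.86 start codons in genes with 1, 2.07 in genes with 2 and 2.24 in genes with 3 or more. Even so, 86 genes with at least 3 clusters had 1 annotated start codon. The median number of coding transcripts rose along with the start codons, at 4, 5 and 6 in these 3 groups. It was 5 in all genes with the label and 4 in genes with CDS clusters and none of the label. These counts cover only protein-coding transcripts whose CDS is not marked as incomplete at the start.

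The sequence around the annotated start was described in the same genes, with no test. In 100 nt of spliced transcript centred on the start, the median T content was 21% and the median GC content 55% in 1170 genes with the label, against 19% and 61% in 2556 genes with CDS clusters and none of the label. A run of TTTTT, searched on the transcript strand only because the bound molecule is single-stranded RNA, occurred in 118 (10.1%) and in 167 (6.53%) of these windows, and in 6.86% of windows over all genes of the table. Among genes of at least 100 tags, the shares were 9.63% and 6.48%. The median 5′UTR was 173 nt against 159 nt long, and the start codon lay in exon 1 in 53.9% against 63.9% of genes. These values describe the annotated start and not the bound bases, and a match is not a binding site.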

How the data were processed

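HITS-CLIP was carried out in 2 replicate libraries of 1 group. According to the methods of the study, the authors mapped reads, collapsed them by a degenerate barcode to unique tags and clustered tags that overlap with Galaxy tools. Novoalign and hg18 are named in the submitters' processing notes, and the version and settings are not given in the sources used here. The deposited table gives tag counts of each cluster per replicate and in total. Every listed cluster had tags in both replicates and at least 5 in total, so column sums are not library depths, and replicate 1, with a median of 2 tags in a cluster labelled CDS and 5′UTR, limits the precision of single clusters. The authors' total was below the sum of the replicates in 30716 clusters, 225 of them labelled CDS and 5′UTR.

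Clusters were selected by the exact set of labels. The total was used for filters (at least 10 tags) and ranks, and replicate columns for spreads. Genes were named by rule, namely the 20 largest clusters, the 5 of at least 100 tags with the largest share of their gene, genes that the study names, the 3 genes with the most tags of each functional list, clusters past the test and those without a gene ID. PDCD6IP and the 8 genes with at least 8 clusters fall outside this rule and were chosen after their values were seen. A gene that the study names is not reported here. The clusters, the lists and the rule were chosen with earlier results of these data known. Adjusted p-values come from the exact binomial test over all 233546 clusters. Tested on simulated data of that size, it recovered 95% of 200 clusters changed 4-fold in odds and called 2 unchanged ones. The changed clusters were drawn from those of at least 100 tags, which 29 of the 2252 clusters labelled CDS and 5′UTR reached. Recovery in shallower clusters was not tested. Intervals are Wilson intervals at 95%. Python 3.11.15, pandas 2.3.3, NumPy 2.4.6, SciPy 1.17.1 and Matplotlib 3.10.9 were used. RefSeq paired 7669 of 7712 gene IDs with current symbols. Reference sequence was read on GRCh37 through gene symbols, and no cluster coordinate was converted. Alternatives were tag minimums, label rule, length scaling, pairing within genes, scaling of the split and leaving out a replicate.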

Additional observations from a re-analysis of the deposited data

How the results depend on the processing

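Of 46 alternatives to the main settings, 18 were counted as unchanged, 24 moved a value and 4 reversed it. The cause was not tested. The 4 concern the difference from CDS alone. Among the 24, the difference from 5′UTR alone at 30 tags also changed sign, from a main value within the replicate spread. The replicate spread set the limit for the share of tags, the log2 differences and the median share of a gene's tags. The number, length, position, split and correlation of clusters had no replicate spread, so unchanged there does not mean within it. The number without replicate 1, 833 against 1076, was counted as unchanged. The number of clusters labelled CDS and 5′UTR was 2252 without a minimum and 247 at 30 tags, against 1076 at 10 tags, and 141 to 833 when 1 replicate was left out. Their share of tags was 0.649% at 30 tags, 0.909% with further labels allowed, and 0.566% to 0.808% with a replicate left out. The log2 difference from CDS alone, 0.045, was 0.0025 over all clusters and reversed to −0.0056 at 30 tags, −0.049 per nt and −0.019 within genes, and it ranged from −0.070 without replicate 2 to 0.047 without replicate 1. The difference from 5′UTR alone, 0.08, was −0.11 at 30 tags, 0.41 within genes, and 0.01 to 0.04 with a replicate left out. The difference from CDS and 3′UTR, −1.001, stayed below 0 throughout, at −1.10 over all clusters, −0.37 per nt, −1.75 within genes, and −1.02 to −0.999 with a replicate left out. The median length was 117 nt at 10 tags and 172 nt at 30 tags. The share of 5′-most clusters, 25.3%, was 34.5% at 10 tags, 52.5% at 30 tags and 36.2% among exonic clusters, and 24.1% for the 29 clusters of at least 100 tags among all clusters. The median share of a gene's tags was 3.87% at 10 tags, 5.05% at 30 tags, 4.70% of exonic tags, and 3.13% to 3.16% with a replicate left out. Spearman's rho between replicates was 0.559 at 10 tags and 0.624 at 30 tags. Under each other scaling, filter or noise model of the exact test, 0 clusters of the label were called, against 11 to 32 of all clusters. No paired analysis was possible because both libraries belong to 1 group. Depth limits these values, since a cluster with 1 or 2 tags in replicate 1 gives little on the split between the libraries.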
